A study of Mus musculus with 4 samples.

Results

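The 5 histone genes described here are among the testis-enriched members of the histone family in the mouse: Hist1h1a and Hist1h1t for linker histone H1, Hist1h2aa for H2A, Hist1h2ba for H2B and Gm12260 for H3. They were picked by gene symbol out of 14984 genes listed in a ribosome profiling table, with the contrast between the groups already known, so their values below are a description and carry no test. All 5 also passed the filter on low reads. Ribosome profiling counts short mRNA pieces covered by ribosomes, so the values reflect both mRNA amount and its use by ribosomes. The tissue was whole testis of mice at day 10. The 2 control libraries are labelled only as control, without a genotype. The 2 Eif5 cKO libraries came from the germ cell knockout of the study, in which mice with a floxed Eif5 gene (Eif5fl/fl) were crossed with Stra8-Cre mice. The Stra8 promoter is active in spermatogonia that prepare for meiosis, and the somatic cells of the testis are meant to keep Eif5. Which germ cells lost Eif5 was not measured here. Nothing in the labels says that the libraries of a group are separate animals or pools, so any spread given here may be technical.

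Histones package DNA into nucleosomes, with H2A, H2B, H3 and H4 in the core and H1 on the linker. Most histone genes lie in clusters and are read during DNA replication, and their mRNAs end in a stem-loop rather than a poly(A) tail. Male germ cells add testis forms of their own before chromatin is repacked with protamines in spermatids. Hist1h2aa and Hist1h2ba encode TH2A and TH2B, which build up from spermatogonia into spermatocytes. Gm12260, now named H3f4, encodes the testis H3 form that enters chromatin in differentiating spermatogonia. Hist1h1a encodes H1.1, a linker histone enriched in spermatogonia, and Hist1h1t encodes H1t, which accumulates in mid to late prophase spermatocytes, a stage hardly reached at this age.

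4 of the members lie in the histone cluster of chromosome 13 and Gm12260 lies on chromosome 11 (GRCm38 coordinates from RefSeq). Hist1h1t is at 23695811 to 23696545, Hist1h1a at 23763668 to 23764412, Hist1h2ba at 23933725 to 23934156 and Hist1h2aa at 23934437 to 23934913 on chromosome 13. Gm12260 is at 58961711 to 58962273 on chromosome 11. Hist1h2ba and Hist1h2aa are a head-to-head pair that shares an intergenic stretch of 280 bases, shown first because both genes are read outward from it. The 100 bases before the annotated starts of the other 3 genes are shown for comparison. Capitals mark CCAAT, the box bound by NF-Y. They also mark the TATA element, searched as TATAA, and the octamer bound by Oct factors. The octamer was searched as ATTTGCAT, and all motifs were searched on both strands. All runs are plus strand, from RefSeq on GRCm38.p6, at chr13:23934157-23934436, chr13:23763568-23763667, chr13:23695711-23695810 and chr11:58961611-58961710 in this order.
Hist1h2ba to Hist1h2aa: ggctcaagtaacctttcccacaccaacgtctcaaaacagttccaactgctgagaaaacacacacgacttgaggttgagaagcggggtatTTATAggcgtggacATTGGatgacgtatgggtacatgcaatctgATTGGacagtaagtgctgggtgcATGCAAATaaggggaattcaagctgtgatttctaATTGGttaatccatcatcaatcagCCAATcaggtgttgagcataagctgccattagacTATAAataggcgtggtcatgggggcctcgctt
Hist1h1a: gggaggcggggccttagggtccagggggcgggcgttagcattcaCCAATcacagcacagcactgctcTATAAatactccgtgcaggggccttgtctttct
Hist1h1t: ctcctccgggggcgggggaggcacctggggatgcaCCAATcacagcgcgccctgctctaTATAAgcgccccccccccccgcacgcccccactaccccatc
Gm12260: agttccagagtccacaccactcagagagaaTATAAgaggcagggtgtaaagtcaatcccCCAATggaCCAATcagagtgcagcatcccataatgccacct

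The shared stretch held 4 CCAAT boxes, 2 TATAA elements and 1 octamer, and no marked match overlapped another. Read in the direction of Hist1h2ba were 3 CCAAT boxes, the octamer and 1 TATAA element, and in the direction of Hist1h2aa 1 CCAAT box and 1 TATAA element. The TATAA element began 32 bases before the annotated start of Hist1h2aa and 94 bases before that of Hist1h2ba. It began 33 bases before the start of Hist1h1a, 41 before that of Hist1h1t and 70 before that of Gm12260. In Gm12260 both CCAAT boxes, which began 41 and 33 bases before the annotated start, followed the TATAA element, and a further CCAAT and TATAA began 10 and 32 bases after that start.

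RefSeq promoter sequences were matched for all 5 members and for 47 replication-dependent histone genes. Over the 250 bases before the start, CCAAT was present in 5 of 5 members, in 38 of the 47 genes and in 33.8% of 32851 promoters of all genes. TATAA was present in 5 of 5 members, 31 of 47 genes and 22.8% of all promoters. The octamer was present in the 2 members of the shared pair, 10 of 47 genes and 1.60% of all promoters. AAACAC, the core of a box known from H1 promoters, was found in 4 of 5 members, 8 of 47 genes and 14.4% of all. The matches of Hist1h2aa and Hist1h2ba were the same site in the shared stretch. GGGCGG was found in 2 members (Hist1h1a and Hist1h1t), 13 of 47 genes and 32.7% of all promoters. TGACG was found in 2 members (the shared pair), 18 of 47 genes and 17.8% of all. CCAAT and TATAA were therefore common to testis and replication-dependent histone genes, and a match is a description of letters only.

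The libraries held 2225964 to 2934609 reads over the listed genes. Across genes, log2 values correlated at 0.944 for the control pair and 0.920 for the Eif5 cKO pair, against 0.910 to 0.930 between groups, with the highest of these between Eif5 cKO replicate 2 and control replicate 1. Eif5 itself had values of 365 and 304 in control, against 173 and 266 in Eif5 cKO, with a log2 fold change of -0.63 (SE 0.25) and an adjusted p of 0.319 (limma with Benjamini-Hochberg adjustment), so it did not pass. Of the testis marker lists, 15 of 15 Sertoli, 8 of 8 Leydig and 15 of 15 undifferentiated spermatogonia markers were listed. None was at 0 in both Eif5 cKO libraries. A few reads suffice to be listed, so this is no test of identity. Nanos2 (2 and 0 reads in control, 4 and 6 in Eif5 cKO) and Id4 (6 and 20, against 1 and 9) did not pass the filter on low reads.

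Values below are read counts divided by a size factor per library, as deposited. Hist1h2aa had values of 470.1 and 472 in control replicates 1 and 2. Its values were 62.5 and 79.0 in Eif5 cKO replicates 1 and 2. Both Eif5 cKO libraries lay far below both controls, and the controls were nearly equal. The means were 471 ± 1.20 and 70.7 ± 11.6 (SD, n = 2), a 6.66-fold difference and a log2 fold change of -2.73 (SE 0.26). These rested on 576 and 411 reads in control, against 55 and 88 in Eif5 cKO. Its divergent partner Hist1h2ba had values of 2879 and 2279.6 in control, against 491 and 536 in Eif5 cKO. The groups were again far apart, although the controls of this gene differed more from each other than those of Hist1h2aa. The means were 2579 ± 424 and 513 ± 31.7 (SD, n = 2), which is 5.03-fold and a log2 fold change of -2.32 (SE 0.23), on 432 to 3528 reads.

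Gm12260, the testis H3 gene, had values of 5503 and 5557 in control, against 1175 and 1221 in Eif5 cKO. The higher Eif5 cKO value was 22.2% of the lower control value. The means were 5529.8 ± 38.1 and 1198 ± 32.8 (SD, n = 2), a 4.62-fold difference with a log2 fold change of -2.21 (SE 0.24), on 1034 to 6743 reads. The controls of this gene were 0.01 and its Eif5 cKO libraries 0.06 apart on the log2 scale.

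The linker histone genes were lower by less. Hist1h1a, the member with the highest deposited values, had 6685 and 6509 in control, against 2486 and 2541 in Eif5 cKO, on 2188 to 8192 reads. No library of one group came near the other group. The means were 6597 ± 124 and 2513 ± 39.1 (SD, n = 2), a 2.63-fold difference with a log2 fold change of -1.39 (SE 0.26). Hist1h1t, the member with the lowest values, had 158 and 111 in control, against 56.8 and 56.5 in Eif5 cKO. Its groups did not overlap, but the controls were 0.50 apart on the log2 scale, the widest gap within a group of any member. The means were 135 ± 33.2 and 56.7 ± 0.197 (SD, n = 2), which is 2.38-fold with a log2 fold change of -1.21 (SE 0.32). It had 194 and 97 reads in control, against 50 and 63 in Eif5 cKO, so counting error weighs most on this gene.

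**Figure D1:**
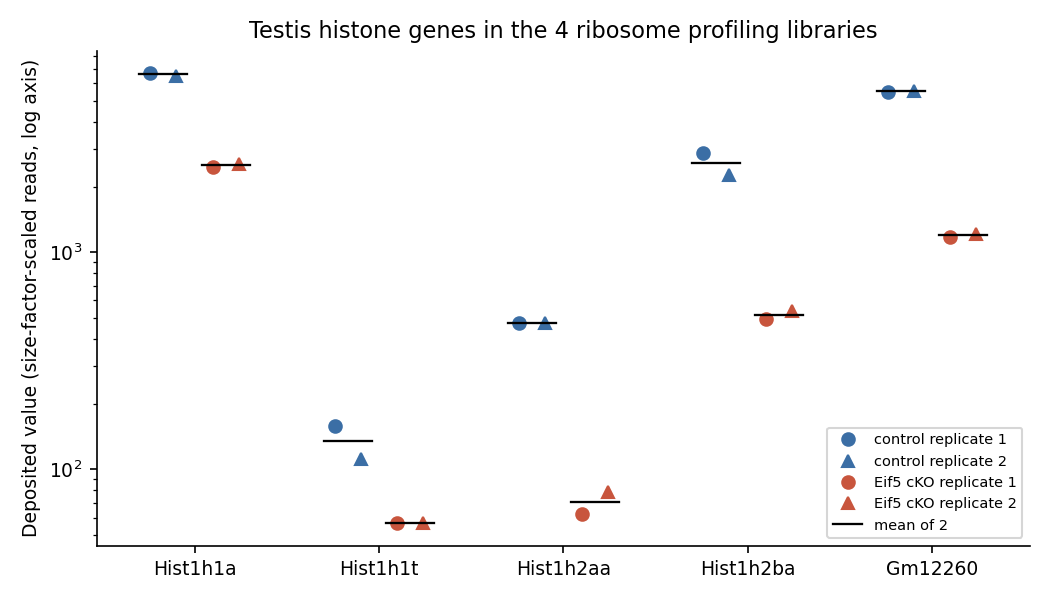
Deposited value (log axis) of each testis histone gene in each of the 4 libraries, with bars at the mean of the 2 libraries of a group. For all 5 genes both Eif5 cKO points lie below both control points, from 6.66-fold in Hist1h2aa to 2.38-fold in Hist1h1t by group means.

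In the fit across all genes, 4 of the 5 members had an adjusted p under 0.05 and were lower in Eif5 cKO, Hist1h1t being the exception. Over all 12095 genes tested, 0.604% were called lower by limma. edgeR and DESeq2 called the same 4 members lower and limma-voom all 5, against 0.661%, 0.61% and 0.67% of all genes (0.761%, 0.704% and 0.827% in either direction). All 5 had a log2 fold change at or below -1, as did 4.79% of all genes. The groups did not overlap and were lower in Eif5 cKO for 5 of 5 members and for 20.9% of all genes tested (40.8% in either direction). Because the members were chosen with this contrast known, nothing is read from these counts. By log2 fold change from the lowest upward, Hist1h2aa stood at rank 25 of 12095, Hist1h2ba at 48, Gm12260 at 61, Hist1h1a at 235 and Hist1h1t at 355. With 1 library left out, log2 fold changes ranged from -2.89 to -2.56 for Hist1h2aa, -2.49 to -2.15 for Hist1h2ba and -2.23 to -2.18 for Gm12260. They ranged from -1.41 to -1.37 for Hist1h1a and -1.47 to -0.96 for Hist1h1t. Not every call held in these fits, and calls of the members carry no test. Tissue-level values cannot tell fewer cells of a type from less RNA or fewer ribosomes per cell.

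To compare genes, reads were also set per kilobase of RefSeq gene length and per 1000000 reads of the library. On this per-length scale the control order was Gm12260 (4081 and 3863), Hist1h1a (3747 and 3419.7), Hist1h2ba (2783 and 2065), Hist1h2aa (411 and 387) and Hist1h1t (89.9 and 59.3). No neighbours in this order overlapped, although the lower Gm12260 value and the higher Hist1h1a value were close. In Eif5 cKO the per-length order was Hist1h1a (1279 and 1366), Gm12260 (799.6 and 869), Hist1h2ba (435 and 497), Hist1h2aa (50.2 and 66.3) and Hist1h1t (29.6 and 30.8). The first 2 genes thus changed places, and again no neighbours overlapped.

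The divergent pair was unequal in level in both groups. Per length, Hist1h2ba had 6.76 and 5.34 reads for each read of Hist1h2aa in control, and this ratio was 8.67 and 7.49 in Eif5 cKO. The ratio is one of footprints and not of protein. The RefSeq lncRNA Gm33516 overlaps both genes and was not analysed here, and no source used here says if reads were counted by strand.

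Testis histones took a large part of the reads of the listed histone genes in the control testes. Together the 5 genes took 0.655% and 0.584% of control reads, against 0.164% and 0.178% of Eif5 cKO reads. For each read of the 52 replication-dependent histone genes listed, they had 0.870 and 0.741 reads in control, against 0.292 and 0.316 in Eif5 cKO. Such ratios within a library do not depend on the scaling between libraries. The sum of the 52 genes itself was 18051 and 20141 in control, against 14612 and 14016 in Eif5 cKO, a much smaller gap than that of the testis genes.

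Within its own type, Gm12260 held 77.2% and 67.6% of the reads of 10 H3 rows in control, against 53.8% and 45.8% in Eif5 cKO. With the replacement variant H3f3b added (11 rows), it held 70.1% and 61.2% in control, against 41.6% and 36.3% in Eif5 cKO. Gm12260 was the largest single listed H3 row in all 4 libraries. The H3 genes H3f3a, Hist2h3b, Hist2h3c1 and Hist2h3c2 were not listed, so neither denominator holds them. Hist1h1a held 58.1% and 57.1% of the reads of 6 H1 rows in control, against 37.6% and 41.2% in Eif5 cKO, while Hist1h1t held 1.38% and 0.977% in control, against 0.860% and 0.917% in Eif5 cKO. The share of Hist1h1a dropped clear of the spread within groups, and that of Hist1h1t moved little beside the distance between its controls. Hist1h2aa held 26.2% and 27.8% of 13 H2A rows in control, against 6.73% and 6.70% in Eif5 cKO. Hist1h2ba held 33.6% and 29.3% of 15 H2B rows in control, against 12.94% and 12.97% in Eif5 cKO. The 2 Eif5 cKO libraries were nearly equal for both genes of the divergent pair. With the replacement variants added to the denominator (19 rows), the Hist1h2aa share was 12.3% and 14.1% in control, against 3.14% and 3.34% in Eif5 cKO. Near-identical copies among the replication-dependent genes may share or lose reads, so these shares belong to the listed rows and not to protein. Of the replication-dependent genes, 12 of 18 for H2A, 14 of 17 for H2B and 9 of 12 for H3 were listed. Any reads of the genes not listed would lower the shares.

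**Figure D2:**
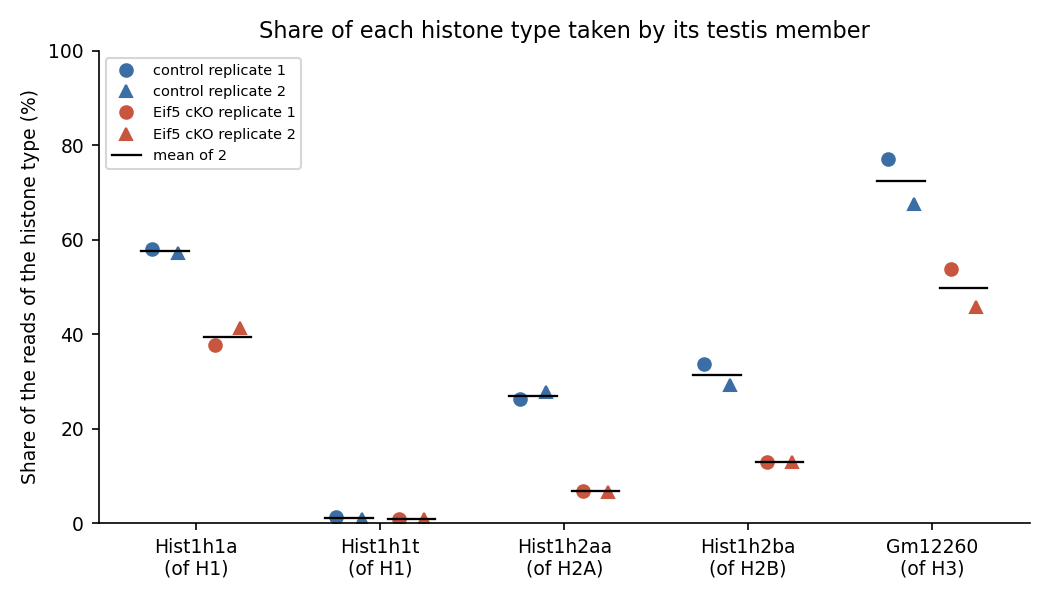
Share (%) of the reads of the listed rows of its histone type taken by each testis histone gene, by library, with bars at the mean of 2 libraries. The Eif5 cKO shares lie below the control shares for every gene, with Hist1h1t near 1% in both groups.

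The replication-dependent histone genes gave a reference for the same chromatin proteins in all dividing cells. Of 64 genes on the list, 52 were listed and 50 tested; limma with Benjamini-Hochberg adjustment called 6 lower and 0 higher. Their median log2 fold change was -0.46, with 37 negative and 13 positive, against a median of 0.0032 over all 12095 genes, of which 73 were called lower and 9 higher (0.678% in all). Without Eif5 cKO replicate 1 this median was -0.18. At an unadjusted p under 0.05, 19 were lower and 2 higher. edgeR, DESeq2 and limma-voom called 6, 4 and 6 of them lower and 0 each higher. limma called 1 of them lower with either control left out, 3 without Eif5 cKO replicate 1 and 8 without Eif5 cKO replicate 2. The median over the 5 testis genes, for description, was -2.21.

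By type, 4 of 13 H2B genes, 1 of 11 H2A genes and 1 of 9 H3 genes were called lower. With 1 library left out, the median ranged from -0.88 to -0.14 for H2B (lowest without Eif5 cKO replicate 2), from -0.75 to -0.14 for H2A (lowest without control replicate 2) and from -0.61 to -0.28 for H3 (lowest without Eif5 cKO replicate 2). The highest of each came without Eif5 cKO replicate 1. Hist1h2bm, an H2B gene, had values of 1011 and 876 in control, against 307 and 389 in Eif5 cKO (log2 fold change -1.44, SE 0.23; adjusted p = 0.00014, limma). Hist3h2ba, an H2B gene of the small chromosome 11 cluster that also holds Gm12260, had 133 and 102 in control, against 35.2 and 34.1 in Eif5 cKO (-1.72, SE 0.36; adjusted p = 0.0083, limma). Both genes had non-overlapping groups, and Hist1h2bm was called in 15 and Hist3h2ba in 14 of 16 alternatives. Hist1h2bm was not called without control replicate 1, nor Hist3h2ba with either control left out. Hist1h2bk had 170 and 179 in control, against 11.4 and 87.0 in Eif5 cKO, so its fold of 3.55 rests on Eif5 cKO replicate 1; the log2 fold change was -2.41 with it and -0.99 without it. It was not called when that library or either control was left out, nor by DESeq2. Hist1h2bj, with means of 1786 and 873, had a log2 fold change of -1.04 (SE 0.23) and was not called when either control or Eif5 cKO replicate 2 was left out. The H2A gene Hist1h2ak had 353 and 354 in control, against 132 and 198 in Eif5 cKO (-1.12, SE 0.25). This call was lost when either control or Eif5 cKO replicate 1 was left out, and with scaling on the Sertoli or the undifferentiated spermatogonia list. The H3 gene Hist1h3a had 692 and 1747 in control, against 358 and 633 in Eif5 cKO (-1.21, SE 0.28), and without control replicate 2 its log2 fold change was -0.54. It was not called without that library or Eif5 cKO replicate 1, by DESeq2, or with scaling on the undifferentiated spermatogonia list.

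Neither the H1 nor the H4 genes of the clusters had a member called by limma, edgeR, DESeq2 or limma-voom. Of 4 H1 genes, 1 had an unadjusted p under 0.05 and was lower (limma): the main somatic linker histone Hist1h1c, with 3239 and 3568 in control, against 2625 and 1795 in Eif5 cKO (-0.65, SE 0.25). Hist1h1b and Hist1h1d had log2 fold changes of 0.40 (SE 0.24) and 0.39 (SE 0.23), so the linker genes other than the testis forms had no common direction. The median of the 4 H1 genes was 0.23, and -0.09 without Eif5 cKO replicate 2. Of 13 H4 genes, 7 were lower and 1 higher at an unadjusted p under 0.05, with a median of -0.50. Without Eif5 cKO replicate 2 the median was -0.21 and 1 gene was called lower. Hist2h4, from the chromosome 3 cluster, had 202 and 321 in control, against 536 and 404 in Eif5 cKO (0.86, SE 0.25; adjusted p = 0.0998, limma). Hist1h4a (-0.81, SE 0.26), Hist1h4n (35.9 and 37.9 in control, 0 and 45.8 in Eif5 cKO), Hist1h3h (-0.98, SE 0.31), Hist1h3d (0.92, SE 0.36), Hist1h2ah (-1.01, SE 0.36) and Hist1h2ai (-0.75, SE 0.31) did not pass. H4 has no testis gene among the members.

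**Figure D3:**
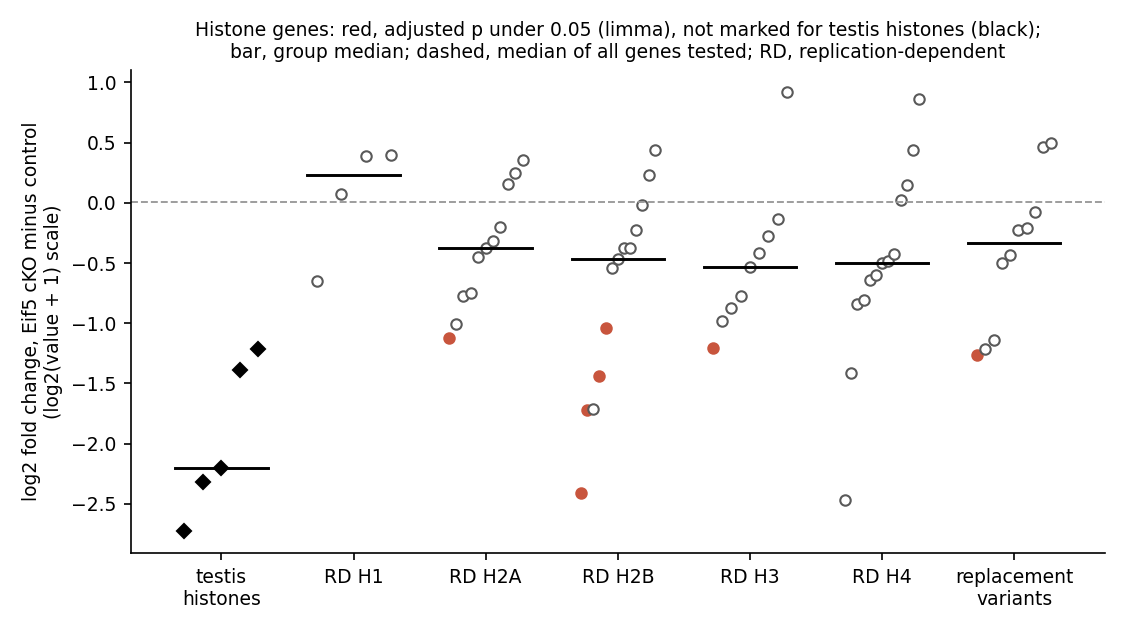
log2 fold change (Eif5 cKO minus control, on the log2(value + 1) scale) of each histone gene tested, by type. Black diamonds are the 5 testis genes, red circles are genes called by limma, open circles were not called, and bars are medians: -2.21 for the testis genes and between -0.53 and 0.23 for the replication-dependent types.

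Among the replacement variants, which are made outside replication, 1 of 10 genes tested was called lower and 0 higher by limma, with a median of -0.33 (-0.55 without Eif5 cKO replicate 1). edgeR, DESeq2 and limma-voom called the same numbers, and 2 were lower and 2 higher at an unadjusted p under 0.05. The called gene was H2afx, the H2A form phosphorylated at DNA breaks, with 1438 and 1054 in control, against 483 and 543 in Eif5 cKO (-1.26, SE 0.23; adjusted p = 0.0012, limma). It was not called without control replicate 1. The linker variant H1fx (55.5 and 43.6 against 22.7 and 18.8) did not pass. Of 14 spermatid histones, transition proteins and protamines, 5 were listed and 4 tested, and limma, edgeR, DESeq2 and limma-voom called none; 1 was lower at an unadjusted p under 0.05. That gene was the H2B form H2bfm, with 42.4 and 28.7 in control, against 9.09 and 0 in Eif5 cKO (adjusted p = 0.078, limma). In 6 of 16 alternatives 1 gene of this list was called lower. Prm2, a protamine gene, had 6.53 and 18.4 in control, against 35.2 and 11.7 in Eif5 cKO, and Tnp2, a transition protein gene, 4.90 and 18.4 against 6.82 and 28.7.

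Among genes that make and handle histone mRNA and protein, 1 was called. Of 15 genes of histone gene transcription and mRNA processing, limma, edgeR, DESeq2 and limma-voom called none, with 2 lower at an unadjusted p under 0.05 and a median of -0.15. This median was 0.02 without control replicate 1, 0.03 without Eif5 cKO replicate 1, -0.27 without Eif5 cKO replicate 2 and -0.30 without control replicate 2, so it had no stable sign. Without Eif5 cKO replicate 2, 1 gene was called lower. The smallest p-values belonged to Casp8ap2, a factor of the histone locus body (151 and 126 against 52.3 and 91.5; -0.99, SE 0.32), and to Pou2f1, the Oct1 factor of H2B transcription (100.4 and 122 against 56.8 and 67.3; -0.83, SE 0.33). Of 18 histone chaperones 1 was called lower and 0 higher, with a median of -0.03 (0.04 without control replicate 1 and -0.17 without control replicate 2). The called gene was Asf1b, an H3-H4 chaperone of dividing cells, with 169.7 and 129.7 in control, against 67.0 and 49.3 in Eif5 cKO (-1.35, SE 0.32; adjusted p = 0.028, limma). It was not called without control replicate 1 or 2. Nasp, a chaperone with a testis form, had 2916 and 2681 against 1696 and 1626 (-0.75, SE 0.24) and did not pass.

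Neighbouring genes on the chromosome did not follow the members uniformly. Hist1h3a, described above, ends 1281 bases before Hist1h1a. Hist1h1t lies between Hist1h2bc, 3330 bases away, with a log2 fold change of -0.02 (SE 0.28), and Hist1h4c, 1538 bases away, with -0.50 (SE 0.23), neither of which passed. Trim11, 11452 bases after Gm12260, had 31.0 and 17.2 in control, against 53.4 and 17.05 in Eif5 cKO and did not pass.

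**Figure D4:**
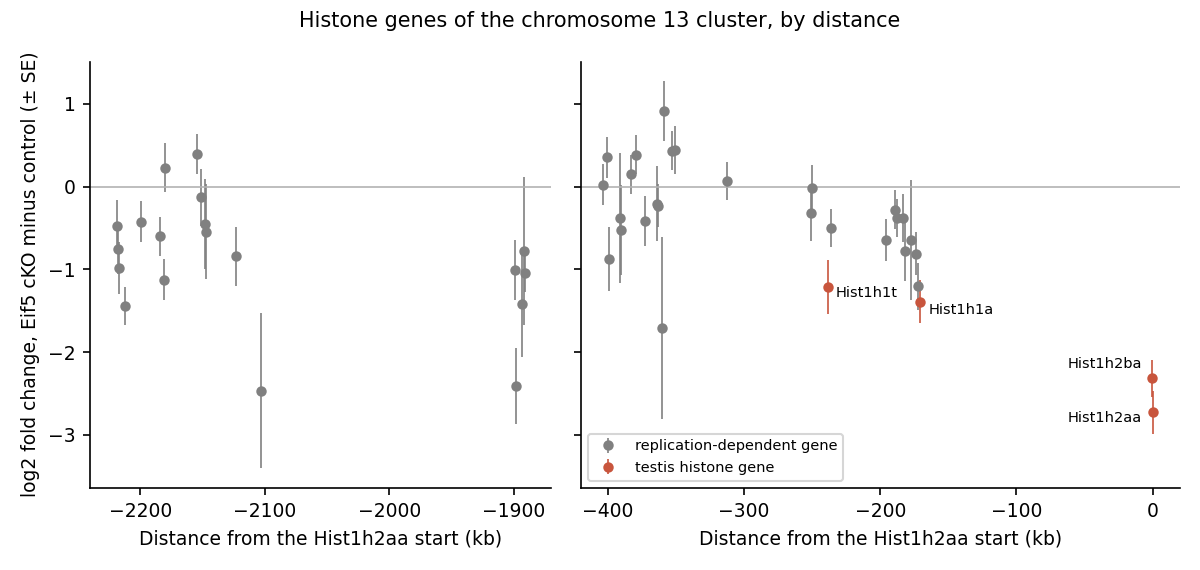
log2 fold change (± SE) of the histone genes of the chromosome 13 cluster against distance (kb) from the start of Hist1h2aa, in both stretches of the cluster. The divergent pair at the right edge, at -2.73 and -2.32, lies below most replication-dependent genes, and Hist1h4n and Hist1h2bk in the left panel reach -2.47 and -2.41.

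Markers of germ cell stages moved in these libraries as well. Of 22 tested genes of meiotic entry and prophase, limma called 13 lower and 0 higher, and all 22 log2 fold changes were below 0; their median was -1.55 (also -1.55 with Rad51ap2, which had no reads in Eif5 cKO, at a bound of 3 reads per library). Without control replicate 1 none of them was called and without control replicate 2, 4 were. The summed value of the 24 listed genes was 4843 and 4231 in control, against 1569 and 1696 in Eif5 cKO. Spo11 and Rad51ap2 were at 0 in both Eif5 cKO libraries, but few reads were there to lose. Spo11 had 3 and 7 reads in control and was not tested. Rad51ap2 had 40 and 13 reads in control and was not called (adjusted p = 0.150, limma). Sycp1, which encodes the transverse filament protein of the synaptonemal complex, had 464 and 379.9 in control, against 97.7 and 153 in Eif5 cKO. Stra8, the retinoic acid target that opens meiosis, had 841 and 587 against 276 and 212. Of 11 markers of differentiating spermatogonia 2 were called lower (Stra8 and Rhox13) and 0 higher, with a median of -0.69. The 11 markers summed to 2921 and 2669 in control, against 1880.2 and 1827 in Eif5 cKO. Stra8 and Prdm9 are also on the meiotic list, so the lists are not separate evidence. The 15 undifferentiated spermatogonia markers summed to 4299 and 4607 in control, against 5062 and 4226 in Eif5 cKO, which overlap. Most of this sum came from Sdc4 (1714 and 2208 against 2912 and 2038) and Uchl1 (1414 and 1349 against 1101 and 1150). The overlap rested on Sdc4. Neither differentiating gene was called without control replicate 1. Of 13 undifferentiated markers tested, 0 were called by limma, edgeR, DESeq2 or limma-voom and 1 was lower at an unadjusted p under 0.05 (Taf4b, -0.67, SE 0.27; adjusted p = 0.322, limma). The part of germ cell number in the histone values was not tested.

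Of 20 S phase genes 2 were called lower and 0 higher, with a median of -0.29: Rrm2, a ribonucleotide reductase subunit (179.5 and 142 against 62.5 and 62.8), and Mcm5, a subunit of the replicative helicase (392 and 298 against 179 and 149.8). Cdc45, a part of the replicative helicase (153 and 148 against 53.4 and 85.2), did not pass. Rrm2 and Mcm5 were not called without control replicate 1 or 2. The median was -0.15 without control replicate 1 and -0.63 without control replicate 2. The list summed to 4478 and 3305 in control, against 2884 and 3014 in Eif5 cKO. In markers of somatic cells, limma called none of 15 Sertoli, 8 Leydig, 6 myoid, 6 macrophage, 6 endothelial and 4 erythroid genes, edgeR also none, and DESeq2 and limma-voom 1 Sertoli gene higher each. At an unadjusted p under 0.05, 6 Sertoli, 6 Leydig and 2 macrophage genes were higher. Without Eif5 cKO replicate 1 and replicate 2, limma called 1 and 5 somatic markers higher. The Sertoli sum was 51420.1 and 70722 in control, against 98482 and 68809.8 in Eif5 cKO, the last within the control range. Most of this sum, and the overlap of the groups, came from Clu (35568 and 52646 against 70687 and 48370.5). With libraries scaled on that list, the members' log2 fold changes were lower still, from -1.66 in Hist1h1t to -3.17 in Hist1h2aa. The part of cell mixture in the histone values was not tested.

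Ratios to the summed meiotic list within each library differed between the members. Hist1h1a had 1.38 and 1.54 reads per read of the meiotic list in control, against 1.58 and 1.498 in Eif5 cKO, so its groups overlapped. Hist1h1t had 0.0327 and 0.0263 in control, against 0.0362 and 0.0333 in Eif5 cKO, slightly above the controls. By contrast, Hist1h2aa had 0.0971 and 0.112 in control, against 0.0398 and 0.0466 in Eif5 cKO, Hist1h2ba 0.594 and 0.539 against 0.313 and 0.316, and Gm12260 1.14 and 1.31 against 0.749 and 0.720. For these 3 core histone genes both Eif5 cKO ratios were below both control ratios, which was not so for either linker gene. With 2 libraries against 2, an exact two-sided permutation test cannot go below p = 0.333, so no test of this difference was made. Against the undifferentiated spermatogonia list all 5 members had lower ratios in both Eif5 cKO libraries. These went from 0.109 and 0.102 to 0.0123 and 0.0187 for Hist1h2aa and from 1.56 and 1.41 to 0.491 and 0.601 for Hist1h1a. Most reads of that list came from Sdc4 and Uchl1. Against the differentiating spermatogonia and the S phase lists, all 5 members also had lower ratios in both Eif5 cKO libraries. On the differentiating list, Hist1h1a had 2.29 and 2.44 in control, against 1.32 and 1.39 in Eif5 cKO. Hist1h1t had 0.0542 and 0.0417 in control, against 0.0302 and 0.0309 in Eif5 cKO. Of the lists used, only the meiotic list set the core genes apart from the linker genes.

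**Figure D5:**
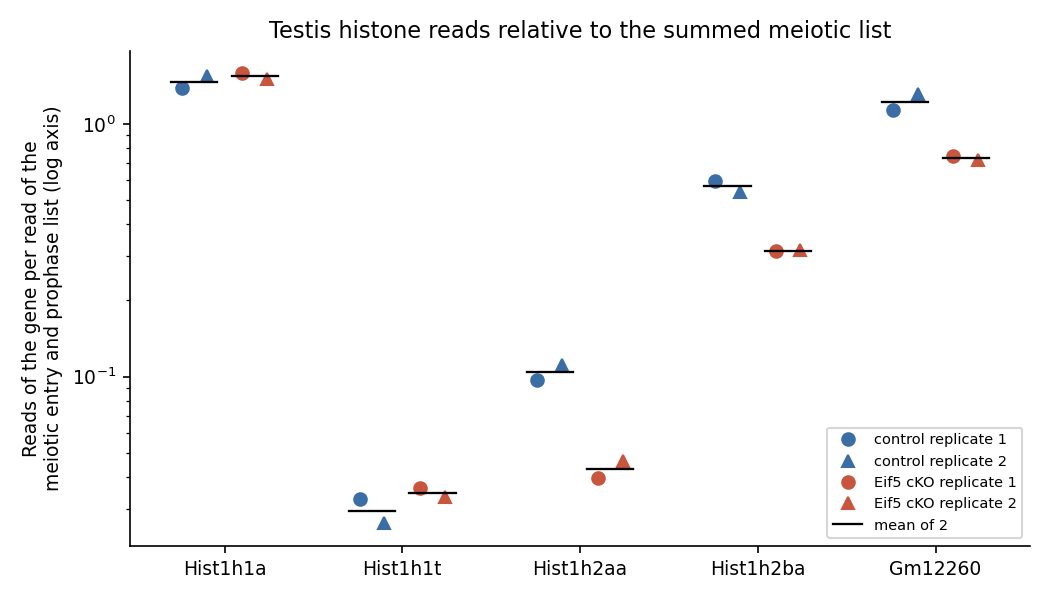
Reads of each testis histone gene per read of the summed meiotic entry and prophase list (log axis), by library, with bars at the mean of 2 libraries. The groups overlap for Hist1h1a, the Eif5 cKO points of Hist1h1t lie just above the controls, and those of Hist1h2aa, Hist1h2ba and Gm12260 lie below.

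The genes whose pattern over the 4 libraries lay nearest to the mean pattern of the members were found by Euclidean distance of centred log2(value + 1) profiles, over 10370 genes with a mean value of at least 20. They were 1700019B21Rik (distance 0.259), Gm364 (0.296), Hist3h2ba (0.309), Rhox13 (0.328) and 1700013H16Rik (0.365). Of these, 4 lie on the X chromosome and Hist3h2ba on chromosome 11. The share of X genes among the 10370 was not computed, so nothing is read from this count. The nearest gene, 1700019B21Rik, had 69 and 39 reads in control, against 10 and 17 in Eif5 cKO, and was not called (adjusted p = 0.104, limma). Gm364 had 651 and 731 in control, against 181 and 211 in Eif5 cKO, and Rhox13, an X-linked homeobox gene of spermatogonia, had 246 and 169.9 against 59.1 and 58.3. The members' own distances from their mean were 0.271 for Gm12260, 0.366 for Hist1h2ba, 0.590 for Hist1h1a, 0.783 for Hist1h2aa and 0.797 for Hist1h1t. Of the 10370 genes, 1 lay nearer than Gm12260 and 5 lay nearer than Hist1h2ba. For Hist1h1a, Hist1h2aa and Hist1h1t these counts were 26, 63 and 64. The mean was made from the members themselves, so nothing is read from these counts. The distances over 4 libraries mostly reflect the difference between groups and describe likeness only.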

How the data were processed

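Ribosome footprints of 2 control and 2 Eif5 cKO testis samples were analysed, with groups and replicate numbers read from the titles. The submitters' processing notes name Bowtie2, STAR, featureCounts and GRCm38; how multi-mapped reads and strand were handled is not given in these sources. The deposited values are a signal: although headed as raw counts, they are whole multiples of the value of 1 read in each column (100% of values at a relative tolerance of 1e-06), so reads divided by a size factor, and reads were recovered from them. No row lacked a gene name.

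limma 3.58.1 (R 4.3.3) with an intensity trend was fitted to log2(value + 1) of the deposited signal, with group as the only term. The 12095 genes tested passed filterByExpr of edgeR 4.0.16 (minimum count 10). Tests were two-sided with Benjamini-Hochberg adjustment and a threshold of 0.05. A fold change on this scale understates changes of low genes. The fits were tested on simulated reads. Alternatives were TMM factors, library totals, scaling on the Sertoli markers, edgeR, DESeq2 1.42.0 and limma-voom. Others were different filters and pseudocounts, each library left out and a replicate block. Scaling on the undifferentiated spermatogonia list was chosen after seeing the data. Scaling on a list mostly follows its largest genes, which were Clu for the Sertoli list and Sdc4 and Uchl1 for the undifferentiated spermatogonia list. The members and gene lists were chosen with earlier results of these data known. The rule for named genes took Eif5, the members, the 2 genes of each list with the smallest p (3 in the replication-dependent and S phase lists), the 5 nearest profiles and the chromosome neighbours; not all of these are printed, the somatic lists being given as counts and sums. Hist1h2bj, Tnp2, Spo11 and Rad51ap2 fall outside it and were named after their values were seen. Of 14984 symbols, 13941 matched RefSeq directly and 682 by synonym.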

Additional observations from a re-analysis of the deposited data

How the results depend on the processing

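The members' log2 fold changes stayed negative in all 16 alternatives. Scaling on the Sertoli list, which moved the median of all genes by -0.44, gave -1.84 for Hist1h1a, -1.66 for Hist1h1t, -3.17 for Hist1h2aa, -2.77 for Hist1h2ba and -2.65 for Gm12260, a median of -0.90 for replication-dependent histones, and a negative median for undifferentiated spermatogonia (-0.35), Sertoli (-0.085) and endothelial (-0.41) lists and for cluster H1 genes (-0.22). With a library left out, the members ranged from -1.41 to -1.37, -1.47 to -0.96, -2.89 to -2.56, -2.49 to -2.15 and -2.23 to -2.18 in the same order. With the variants added to the denominator the Hist1h2aa share was lower by -9.96 rather than -20.3 percentage points. Left-out libraries gave 9 to 244 genes called lower and 1 to 102 higher over all genes, and 1 to 8 lower and 0 to 1 higher among replication-dependent histones. Over all genes, 36 were lower and 1 higher at an adjusted p under 0.01, and 48 lower and 2 higher with scaling on undifferentiated spermatogonia; 14 were higher with library totals, 1 with Sertoli scaling and 19 in limma-voom. Replicate numbers were not shown to pair samples (the correlation of same-numbered deviations was -0.05); the replicate block gave 14 genes higher, and the same 4 members were called. Hist1h1t, with 50 to 194 reads, is the member that depth limits most. The cause of these shifts was not tested.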
